A study of Rattus norvegicus with 24 samples.

Results

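RNA from thyroids of adult male rats of the Sprague-Dawley strain was profiled on 24 Affymetrix expression arrays, and the transcripts of 10 enzyme genes that remove hydrogen peroxide were followed across all of them. The genes were chosen by function: the glutathione peroxidases Gpx1, Gpx3 and Gpx4, the peroxiredoxins Prdx1 to Prdx6, and catalase, Cat. A member was measured where the array's annotation gave a probe set that symbol and no other. This held for 9 of the 10 genes, with 10 probe sets among the 31042 that are not array controls. The probe set for Prdx1 also carries the symbol Prdx1l1, so Prdx1 was given no value. Each gene is represented by its brightest probe set, and all 9 passed the filter on dim signal that left 18625 probe sets for testing. Only Gpx4 had another probe set, which was dim (mean log2 value 5.67) and did not pass the filter.

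The arrays form 8 groups of 3, with the same treatments at 1 day and at 14 days. At each time the groups are an iodine-deficient diet with perchlorate in the water, the iodine-deficient diet with normal water, a normal diet with perchlorate in the water, and a normal diet with normal water as the control. All rats were housed and fed for 2 months plus the 1 or 14 days, so the day 1 diet groups had already eaten the deficient diet for 2 months, while perchlorate had been given for 1 or 14 days as potassium perchlorate at 95 mg in each liter of water drunk. Whether each array stands for its own animal is not given in the labels. The p-values therefore reflect the spread between arrays alone, which may be technical. The tissue is the whole gland, in which fewer cells of a type and less RNA per cell cannot be told apart. All 7 follicular cell markers that could be tested (Tg, Slc5a5, Tshr, Pax8, Nkx2-1, Foxe1 and Duox2) passed the filter.

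Thyroid follicular cells make hydrogen peroxide at their apical membrane with dual oxidases, and thyroid peroxidase uses it to attach iodine to thyroglobulin. Peroxide that is not used there is reduced by several families of enzymes. Glutathione peroxidases draw on glutathione, and the 3 studied here are selenoproteins. Most peroxiredoxins use reactive cysteines that thioredoxin restores, and catalase splits peroxide inside peroxisomes. Iodine deficiency and perchlorate, which blocks iodide uptake by the sodium iodide symporter, both leave the gland short of iodide. The comparisons ask whether transcripts of these enzymes differ in such glands.

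None of the 9 measured enzymes passed the test in any of the 13 comparisons. Values are log2(intensity + 16) after quantile normalization between arrays, and a fold change is a difference of group means on that scale. The test was limma's moderated test with Benjamini-Hochberg adjustment over all 18625 probe sets, with a call at an adjusted p under 0.05. The moderated F test over the 8 groups called 0 of the 9 enzymes, against 7.81% of all probe sets. Its smallest adjusted p among the 9 was that of Gpx3 (0.224), followed by Prdx4 (0.363). At an unadjusted p under 0.05, 1 enzyme was reached in 1 comparison: Gpx3 with diet and perchlorate at day 14, where 21.6% of all probe sets were reached. The share of all probe sets called was itself at most 8.86% in each comparison, so 0 of 9 is near that background and is not a result about these enzymes.

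**Figure D1:**
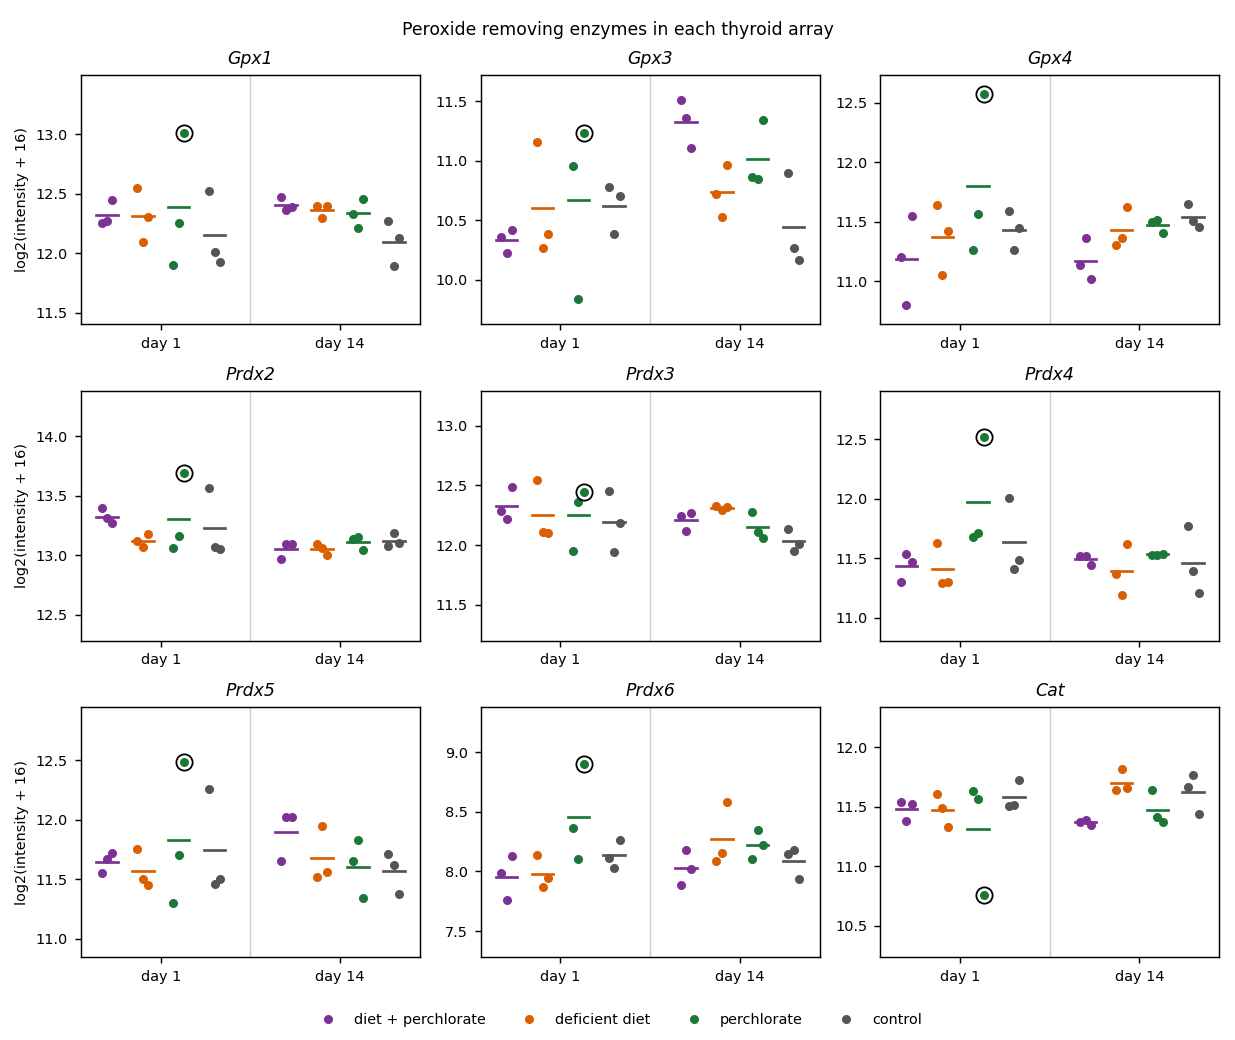
Values of the 9 enzymes in all 24 arrays, as log2(intensity + 16) after quantile normalization (vertical axes, each spanning the same height), by group within day 1 and day 14. Points are arrays, short lines are means of 3 arrays, and the open circle marks perchlorate replicate 18 of day 1, which is the highest of all arrays for 6 enzymes and the lowest for Cat.

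One array bears on the day 1 values. In perchlorate replicate 18 of day 1 the median absolute deviation of all tested probe sets from their median over the other arrays came to 0.674. The remaining 23 arrays lay between 0.130 and 0.287. This array gave the highest of all 24 values for Gpx1, Gpx4, Prdx2, Prdx4, Prdx5 and Prdx6 and the lowest for Cat. Over all tested probe sets it was the highest for 27.8% and the lowest for 30.3%. Summed lymphocyte marker intensity ran from 111 to 5897 in the 3 perchlorate arrays of day 1, with a median of 2118. The day 1 controls ran from 126 to 173, so sums above the controls were not confined to replicate 18. The part of these markers in the enzyme values was not tested. The next array in this order was control replicate 22 of day 1, the highest of the 3 day 1 controls for 7 of the 9 enzymes, against 40% of all probe sets.

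Gpx3 encodes the secreted glutathione peroxidase, which acts outside the cell and is found in plasma. It came closest to a call, in glands exposed to both diet and perchlorate for the longer time. It read 11.52, 11.36 and 11.11 with diet and perchlorate at day 14, against 10.89, 10.27 and 10.17 in the day 14 controls. The 3 values of the combined exposure all lay above the controls, whose replicate 43 stood above the other controls. The log2 fold change was 0.88 (SE 0.28, 95% interval 0.29 to 1.47, adjusted p = 0.0577), a fold of 1.84. The call was made when the fit held these 6 arrays alone (adjusted p = 0.0129), when arrays were weighted by quality (0.00227), when the 2 arrays of day 1 named above were left out (0.0263) and when control replicate 43 was left out (0.0366). The first 3 of these settings also called more of all probe sets than the main fit. The estimation of the weights stopped short of its convergence tolerance. Over all 16 alternatives the adjusted p of Gpx3 was highest, at 0.208, without diet and perchlorate replicate 27. When the 6 arrays of this comparison were left out 1 at a time, only the omission of control replicate 43 changed the call. Arrays of the other groups were not left out singly for this comparison.

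At day 14 perchlorate alone gave Gpx3 values of 10.87, 10.85 and 11.34, and the diet alone gave 10.72, 10.53 and 10.97. Against the same controls these are log2 fold changes of 0.57 (SE 0.28, adjusted p = 0.375) and 0.30 (SE 0.28, adjusted p = 0.875). Both groups overlapped with the controls. Set against the diet alone, the combined exposure was higher by 0.59 (95% interval -0.01 to 1.18, adjusted p = 0.633), with no overlap. The interaction of diet and perchlorate at day 14 was 0.01 for Gpx3 (95% interval -0.82 to 0.85, adjusted p = 0.9997).

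At day 1 the order of Gpx3 was different. Diet with perchlorate gave 10.36, 10.23 and 10.42, the lowest mean of the 8 groups, against 10.78, 10.38 and 10.71 in the day 1 controls (log2 fold change -0.29, adjusted p = 0.784). Perchlorate alone spread from 9.84 to 11.23 over its 3 arrays, wider than any other group of this gene. The effect of perchlorate differed between day 14 and day 1 by 0.52 (SE 0.40, adjusted p = 0.625) with all arrays. It was 0.80 (adjusted p = 0.363) without replicate 18 and 0.10 (adjusted p = 0.888) without replicate 16 of day 1 perchlorate, the array that read 9.84. Over the 8 groups the means ran from 10.34 to 11.33, and each of the 7 pairs of neighbours in that order overlapped.

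Gpx1 is the abundant intracellular selenoenzyme that reduces hydrogen peroxide and soluble organic peroxides. All 3 treated groups of day 14 lay close together and above the controls of that day. The values were 12.47, 12.36 and 12.38 with diet and perchlorate, 12.39, 12.29 and 12.40 with the diet, and 12.33, 12.21 and 12.46 with perchlorate, against 12.27, 11.90 and 12.12 in controls. The first and second of these groups did not overlap with the controls, and the perchlorate group did. The log2 fold changes were 0.31 (95% interval -0.10 to 0.72, adjusted p = 0.395), 0.27 (-0.14 to 0.68, adjusted p = 0.781) and 0.24 (-0.17 to 0.65, adjusted p = 0.714). With array quality weights the combined exposure passed for Gpx1 at a log2 fold change of 0.35 (adjusted p = 0.023), and the diet passed over the mean of both days at 0.30 (adjusted p = 0.0284). Without weights the value over both days was 0.21 (adjusted p = 0.599). The weights also called more of all probe sets than the main fit in both comparisons.

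Gpx4 reduces lipid peroxides within membranes. Its lowest mean was in the combined exposure at day 14, with 11.13, 11.37 and 11.02, against 11.65, 11.51 and 11.46 in controls. The arrays did not overlap, and the log2 fold change was -0.37 (95% interval -0.86 to 0.13, adjusted p = 0.409). The combined exposure at day 1 gave 11.21, 10.80 and 11.55, against 11.59, 11.26 and 11.45 in controls (-0.25, adjusted p = 0.776), with overlap. Perchlorate at day 1 stood at 0.37 for Gpx4 (adjusted p = 0.577) with all arrays and at -0.02 (adjusted p = 0.99) without replicate 18, which read 12.57. The other probe set of Gpx4, too dim to pass the filter, had its highest mean in the combined exposure at day 14. That mean was 6.02, against 5.46 in the day 14 controls, with overlap.

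Catalase at day 14 was lowest in the combined exposure, where the 3 arrays lay within a narrow band. Cat read 11.37, 11.39 and 11.35 there, against 11.66, 11.76 and 11.44 in controls (log2 fold change -0.25, 95% interval -0.60 to 0.09, adjusted p = 0.416). The diet alone gave 11.64, 11.81 and 11.65, all above the combined exposure. That difference was -0.33 for the combined exposure against the diet (SE 0.17, 95% interval -0.68 to 0.02, adjusted p = 0.658), and it passed with array quality weights (-0.34, adjusted p = 0.0375). Those weights also called more of all probe sets than the main fit in this comparison. Perchlorate alone gave 11.64, 11.41 and 11.37, overlapping with controls (-0.15, adjusted p = 0.82). At day 1 perchlorate gave Cat values of 11.63, 11.56 and 10.75, against 11.50, 11.51 and 11.72 in controls, a difference of -0.27 that came to 0.01 without replicate 18.

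The peroxiredoxins are described by the place in the cell where they work. Prdx2, a cytosolic peroxiredoxin that is also abundant in red cells, spanned 12.97 to 13.19 over the 12 arrays of day 14. Its log2 fold changes against the day 14 controls were -0.07 for the combined exposure, -0.07 for the diet and -0.01 for perchlorate. It had the narrowest limits of the 9 enzymes: over all 13 comparisons no 95% interval reached beyond 0.48 in either direction. At day 1 the combined exposure gave 13.40, 13.31 and 13.27, against 13.12, 13.07 and 13.18 with the diet alone. These did not overlap, as for 7.31% of all probe sets, and the difference was 0.20 (adjusted p = 0.958). Summed red cell marker intensity overlapped between these groups, at 4048 to 6313 with the combined exposure and 4020 to 5983 with the diet alone. The part of red cells in the Prdx2 values was not tested. Without the 2 day 1 arrays that stood apart, Prdx2 was called by the F test over the 8 groups (adjusted p = 0.0456). That F test also called more of all probe sets than the one with all arrays.

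Prdx3 is the peroxiredoxin of the mitochondrial matrix. In the diet group of day 14 its arrays read 12.32, 12.29 and 12.32, all above the controls at 12.14, 11.95 and 12.01. The log2 fold change was 0.28 (SE 0.15, 95% interval -0.02 to 0.58, adjusted p = 0.584). With perchlorate added to the diet Prdx3 read 12.24, 12.12 and 12.27, below the diet alone without overlap (-0.10, adjusted p = 0.956). Perchlorate on the normal diet gave 12.28, 12.11 and 12.06, overlapping with controls (0.12, adjusted p = 0.842).

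Prdx4 works in the endoplasmic reticulum, where it reduces peroxide made during oxidative protein folding. Its perchlorate arrays of day 14 were nearly equal, at 11.53, 11.53 and 11.54, while the controls spread over 11.78, 11.39 and 11.21. The combined exposure gave 11.52, 11.52 and 11.45, and the diet 11.37, 11.19 and 11.62. The 3 log2 fold changes against controls lay between -0.07 and 0.07. Perchlorate at day 1 gave 11.68, 11.71 and 12.52, against 12.01, 11.41 and 11.49 in controls, a difference of 0.33 (adjusted p = 0.548) that was 0.06 (adjusted p = 0.955) without replicate 18.

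Prdx5, found in mitochondria, peroxisomes and the cytosol, read 11.65, 12.02 and 12.02 with diet and perchlorate at day 14, against 11.71, 11.62 and 11.37 in controls. The groups overlapped, with a log2 fold change of 0.33 (95% interval -0.16 to 0.82, adjusted p = 0.467). The diet stood at 0.11 and perchlorate at 0.04. Prdx6, which reduces phospholipid peroxides with the help of glutathione, had the dimmest probe set relative to the others on the array, at the 65.6th percentile of mean signal. Its values at day 14 were 7.89, 8.18 and 8.02 with diet and perchlorate, against 8.15, 8.18 and 7.94 in controls, and they overlapped (-0.06, adjusted p = 0.905). Its diet group of day 14 read 8.09, 8.15 and 8.58 (0.18, adjusted p = 0.887), and its perchlorate group 8.10, 8.35 and 8.22 (0.13, adjusted p = 0.869).

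**Figure D2:**
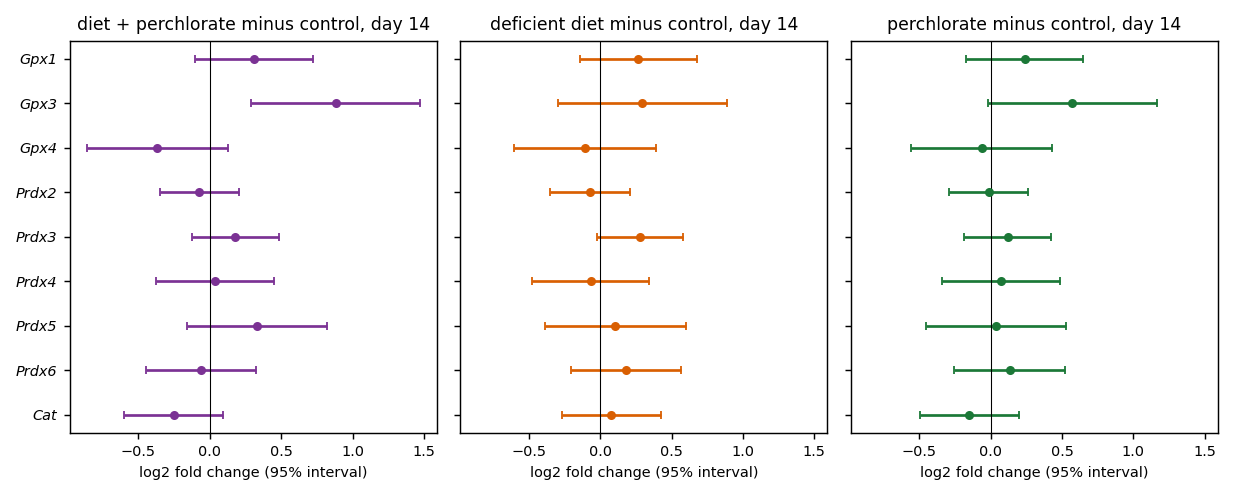
Log2 fold changes of the 9 enzymes at day 14 for diet with perchlorate, the diet and perchlorate, each against the same 3 control arrays (horizontal axis), with 95% intervals from the limma fit that are not adjusted for the number of genes. The interval of Gpx3 with diet and perchlorate (0.29 to 1.47) is the only one of the 27 that does not include 0.

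The 9 enzymes are described below as a set for each comparison, beside the same values for all probe sets. The 3 comparisons at day 14 share their controls. With diet and perchlorate at day 14, where limma called 8.86% of all probe sets, the 9 log2 fold changes ran from -0.37 to 0.88, 5 above 0 and 4 below. Their median was 0.04, against -0.06 for all probe sets. Arrays did not overlap with controls for 2 enzymes on the higher side and 2 on the lower, against 16.2% and 20.7% of all probe sets. With perchlorate at day 14 (3.6% of all probe sets called) the range was -0.15 to 0.57 and the median 0.07, and with the diet at day 14 (0.22% called) it was -0.11 to 0.30 with a median of 0.11. With perchlorate at day 14 the arrays overlapped with the controls for all 9 enzymes, while 26.1% of all probe sets were free of overlap. With the diet 2 enzymes, Gpx1 and Prdx3, were higher without overlap, against 10.6% of all probe sets.

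At day 1 no fold change of the 9 against controls lay outside -0.29 to 0.37. Diet with perchlorate (0.601% of all probe sets called) gave -0.29 to 0.17, and the diet (0.0537% called) gave -0.23 to 0.16. Perchlorate at day 1 gave -0.27 to 0.37, with 0% of all probe sets called by limma and 1886 of them at an unadjusted p under 0.05. The diet over the mean of both days (1.03% called) gave -0.15 to 0.21, and the controls of day 14 against those of day 1 (0% called) gave -0.18 to 0.11. In none of these 5 comparisons was an enzyme free of overlap between the groups. The same held for all but 17.7%, 12.4%, 7.14%, 3.78% and 9.41% of all probe sets, in the order given. For the mean of both days (3.78%) the measure was stricter, with no overlap required on each day separately and in the same direction.

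Adding perchlorate to the diet called 0.00537% of all probe sets at day 1 and 0.209% at day 14, and the 9 enzymes ran from -0.27 to 0.20 at day 1 and from -0.33 to 0.59 at day 14. At day 14 Gpx3 was higher and Prdx3 and Cat were lower without overlap, against 11.7% and 13% of all probe sets. Adding the diet to perchlorate at day 14 (0.00537% called) gave -0.30 to 0.31, with Gpx4 and Prdx4 lower without overlap, against 7.04% of all probe sets. The interaction at day 14 (0.0161% called) gave -0.38 to 0.19, and the later minus the earlier perchlorate effect (0.553% called) gave -0.43 to 0.52. The intervals show what the arrays could not resolve. Over the simple comparisons of 3 arrays with 3, the SE ran from 0.13 for Prdx2 to 0.28 for Gpx3, and the outermost bounds of the 95% intervals at day 14 were -0.86 for Gpx4 and 1.47 for Gpx3.

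A sequence shared by some of the promoters is given here because glutathione and thioredoxin genes, described next, include targets of the transcription factor NRF2. The core of its antioxidant response element, TGACNNNGC, was searched on both strands in RefSeq promoter windows (250 bases before to 50 after each start, build GRCr8), and no other motif was searched. Of the 10 genes 9 had a window, with Prdx6 the exception, and 3 held a match: Prdx1, Prdx4 and Prdx5. Of all 33469 windows 12.1% held one. That share is counted by window, while a gene with several windows was counted once above. The matches of the 2 measured genes (Prdx4 and Prdx5) follow, along the gene's strand with the match in capitals, which reads the motif on the opposite strand.
Prdx4, chrX:43878742-43878770, plus strand: tttcgtgctcGCTTGGTCAtggaaacgtg
Prdx5, chr1:213532010-213532038, minus strand: cctcctgtggGCAGAGTCAtctgcgggtg
The match of Prdx4 starts at base 20 of the transcript and that of Prdx5 at the last base before the start. Neither gene passed the test in any comparison, as given above. Of the partner genes searched, the windows of Gclc, Mgst1, Pgd, Txnrd2, Srxn1 and Nqo1 held no match. That of Txndc17 and 1 of the 2 windows of Txnrd1 held one. Bases outside the windows were not searched, so a window without a match does not show that the gene lacks the element.

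Genes that supply or restore these enzymes, or make peroxide and superoxide, were taken from lists chosen with earlier results of these data known. Over 7 lists of the other glutathione peroxidases, the thioredoxin and glutathione systems, NADPH supply, sources of peroxide and superoxide, selenoproteins and peroxisomes, 77 genes were tested. With diet and perchlorate at day 14, 2 of them rose and 5 fell, while 6.12% of all probe sets were called higher and 2.74% lower. In both directions together 8.86% of all probe sets were called, so the share of the 77 called is near that background. With perchlorate at day 14, 1 rose and 1 fell (2.93% and 0.677% of all probe sets), and with both at day 1, 1 fell (0.156% of all probe sets). The diet called 0 of the 77 on either day or over their mean.

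In the glutathione system 2 of 10 genes fell with diet and perchlorate at day 14 and 0 rose, with a list median of -0.20, against 2.74% lower and 6.12% higher and a median of -0.06 for all probe sets. The same background applies to the lists that follow. Gclc encodes the catalytic subunit of glutamate-cysteine ligase, the rate-limiting step of glutathione synthesis. It read 8.35, 8.13 and 8.51, against 9.67, 9.26 and 9.38 in controls (log2 fold change -1.11, SE 0.22, adjusted p = 0.00241). The arrays were far apart, and the call held under all 16 alternatives. Gclc also fell with perchlorate alone at day 14, where it read 8.23, 8.63 and 8.03 (-1.14, adjusted p = 0.00422), a call that held under all 16 alternatives as well. Mgst1, a membrane-bound glutathione transferase with peroxidase activity, read 11.96, 12.05 and 12.17, against 13.07, 12.94 and 13.00 in controls (-0.94, SE 0.20, adjusted p = 0.00477), and its call also held under all 16. Gclc fell as well with diet and perchlorate at day 1, at 8.28, 8.26 and 8.28 against 8.92, 9.44 and 9.33 in controls (-0.96, adjusted p = 0.0419), a call kept under 7 of 16 alternatives. Gstp1 (-0.66, adjusted p = 0.15) and the glutathione synthetase gene Gss (-0.55, adjusted p = 0.172) did not pass.

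In the thioredoxin system 1 of 12 genes rose and 1 fell with diet and perchlorate at day 14, with a list median of -0.07. Txndc17, a small thioredoxin-related protein of the cytosol, read 11.93, 11.87 and 12.05, against 11.47, 10.98 and 10.71 in controls (0.90, SE 0.21, adjusted p = 0.00742). This call ended without control replicate 47 (adjusted p = 0.056). Txnrd2, the mitochondrial thioredoxin reductase that keeps the partner of Prdx3 reduced, read 7.41, 7.89 and 7.73, against 8.57, 8.62 and 8.24 in controls (-0.80, SE 0.20, adjusted p = 0.0117). Its call ended on the values as deposited (0.0802) and without diet and perchlorate replicate 27 (0.089) or control replicate 43 (0.052) or 44 (0.0602). Txnrd3 (-0.57, adjusted p = 0.117) and Txnrd1, the cytosolic reductase (-0.56, adjusted p = 0.176), did not pass.

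Both reductants depend on NADPH, and 1 of 8 genes of its supply fell with diet and perchlorate at day 14 (list median -0.24). Pgd, an enzyme of the pentose phosphate pathway, read 10.75, 10.53 and 10.36, against 11.24, 10.86 and 11.08 in controls (-0.51, SE 0.14, adjusted p = 0.0294). This call ended under 5 of 16 alternatives, with an adjusted p of up to 0.162 without diet and perchlorate replicate 30. Other enzymes of that pathway, Taldo1 (-0.27, adjusted p = 0.226) and Tkt (-0.64, adjusted p = 0.283), did not pass.

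**Figure D3:**
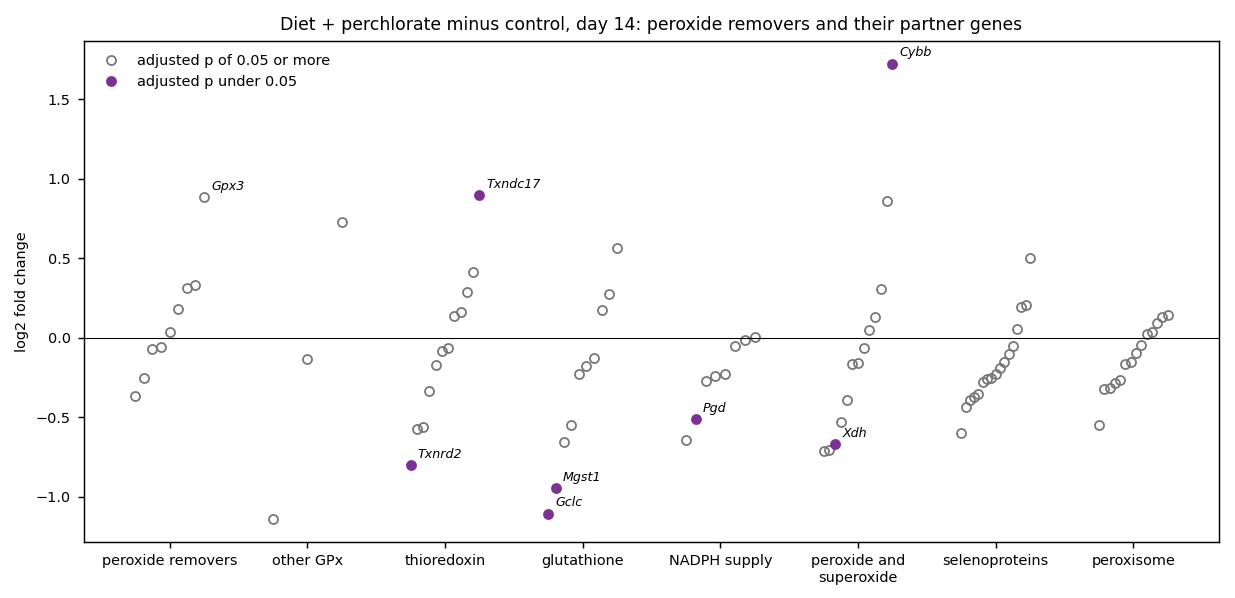
Log2 fold changes (vertical axis) of the 9 peroxide removing enzymes and of 77 partner genes in 7 lists, for diet with perchlorate minus control at day 14. Filled points passed the test at an adjusted p under 0.05, as did 8.86% of all probe sets. They are 7 partner genes and none of the 9 enzymes, of which Gpx3 (0.88) lies highest.

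Among sources of peroxide and superoxide 1 of 13 genes rose and 1 fell with diet and perchlorate at day 14. Duox2, the oxidase that makes peroxide for iodination, read 10.67, 10.80 and 10.78, against 10.93, 11.25 and 11.23 in controls. These did not overlap, as for 20.7% of all probe sets on the lower side. The log2 fold change was -0.39 (SE 0.22, adjusted p = 0.319), and Duox2 was named after its values were seen. Cyba, the partner subunit of Cybb, was at 0.86 (adjusted p = 0.063). Duoxa1, which encodes a maturation factor of the dual oxidases, was at -0.71 (adjusted p = 0.099). Cybb, the oxidase subunit of phagocytes, rose by 1.73 (SE 0.24, adjusted p = 0.000102), and it rose by 1.26 with perchlorate alone at day 14 (adjusted p = 0.00372). Macrophage markers moved with it: 5 of 6 rose with diet and perchlorate, and their summed intensity was 2832 to 3996 against 1086 to 1384 in controls. Their part in the values of Cybb was not tested. Xdh, xanthine dehydrogenase, fell by 0.67 (adjusted p = 0.0452), a call lost under 8 of 16 alternatives (adjusted p up to 0.171).

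Marker sums of other cell types are given beside Gpx3 and the partner genes. Endothelial markers summed to 9250 to 10655 with diet and perchlorate at day 14, against 3757 to 4589 in controls, and 3 of 4 rose. C cell markers summed to 14840 to 23805, against 26814 to 30739 in controls, and 3 of 5 fell. Adipocyte markers summed to 2450 to 3539, against 3592 to 7723 in controls, with 0 of 8 called. Follicular cell markers summed to 37146 to 38081, against 34677 to 34906 in controls, with Slc5a5 higher and Foxe1 lower among the 7. Parathyroid markers summed to 12315 to 17851, against 20752 to 21225 in controls, and 1 of 2 fell. Red cell markers summed to 3921 to 4714, against 4435 to 5465 in controls, with 0 of the 3 tested called. For muscle markers the sums were 5800 to 7568 against 5795 to 6954, with 0 of 7 called. Lymphocyte markers summed to 217 to 2470 against 86 to 147, without overlap, and only 2 were tested, with 0 called. The red cell and lymphocyte sums are over 5 genes each. The part of these cell types in the fold changes was not tested.

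The lists of other glutathione peroxidases, selenoproteins and peroxisomes held no call with diet and perchlorate at day 14. Of 3 further glutathione peroxidases tested, Gpx2, known from the gut epithelium, read 10.54, 10.27 and 10.74 with diet and perchlorate, against 11.94, 11.52 and 11.51 in controls. Those arrays were clear of each other, as for 20.7% of all probe sets on the lower side. The log2 fold change of Gpx2, -1.14, had an SE of 0.50 and did not pass (adjusted p = 0.176). Gpx2 passed under 2 of 16 alternatives, with only the groups compared (0.00141) and with array quality weights (0.0273). Gpx7, which acts in the endoplasmic reticulum, read 9.18, 8.98 and 9.51, against 8.70, 8.31 and 8.47 in controls (0.73, SE 0.25, adjusted p = 0.0721). Gpx7 passed under 3 of 16 alternatives: only the groups compared (0.0174), array quality weights (0.000963) and without the 2 day 1 arrays that stood apart (0.00877). The settings under which Gpx2 and Gpx7 passed also called more of all probe sets than the main fit. Gpx8, also of the endoplasmic reticulum, was at -0.14. Of 17 genes of selenoproteins and selenocysteine insertion 0 were called, and of 14 peroxisome genes 0. Selenok, a selenoprotein of the endoplasmic reticulum, stood at -0.39 (adjusted p = 0.0867), and Eefsec, the elongation factor for selenocysteine, at -0.44 (adjusted p = 0.0913). Of 4 tested genes that handle iodine, 1 rose: Slc5a5, the sodium iodide symporter (1.70, adjusted p = 1.12e-05).

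By a fixed rule, the genes with the most similar pattern over the 8 group means were sought for Gpx3 and Prdx4, the members with the largest F statistics. For Gpx3 these were Ptgfrn (Pearson r = 0.98), Il18 (0.97) and Cnrip1 (0.97), among 10642 other genes, with r of 0.57, 0.80 and 0.75 over the 24 arrays. For Prdx4 they were Tubg1, Gtf2h3 and Rcc1l (0.98 each), with 0.81, 0.52 and 0.83 over the arrays. These values are descriptive. The points share arrays and normalization, and the highest group mean of Prdx4 includes perchlorate replicate 18 of day 1.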

How the data were processed

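The authors' deposited values are linear intensity per probe set from 24 arrays, 1 sample each, which GCOS produced, per the submitters' processing notes; its version, settings and scaling target are not given in the sources used here. Total RNA was extracted with Trizol and an RNeasy column, per the labels' protocols. The table held 31099 probe sets, and 57 array controls were left out. Probe sets were named from the platform annotation where it gave 1 symbol. Intensities were taken as log2(intensity + 16) and quantile normalized, because array medians spanned 0.56. Probe sets under the 40th percentile of mean signal were left out. Limma 3.58.1 in R 4.3.3 fitted 1 mean per group over all 24 arrays, with a mean-variance trend, two-sided tests and Benjamini-Hochberg adjustment. SE is that of the log2 fold change. The fit was also run on simulated data with known changes, drawn as independent normal values without an array that stood apart. That run does not show how the fit behaves on the arrays used here. Pearson correlations between arrays of 1 group ran from 0.924 to 0.983, and 0 pairs of arrays were identical. The number of arrays limits the precision, and signal over background is unknown.

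The members, lists, comparisons and alternatives were chosen with earlier results of these data known. Named genes are all members in every comparison and, from each other list, up to 4 genes with the smallest adjusted p in a comparison, fewer where a list has no call; Duox2 was named outside this rule, after its values were seen. The genes most like a member are the 3 with the highest Pearson r for the 2 members with the largest F. A log2 fold change of dim probe sets is understated by the added 16. Intervals are 95% intervals of the limma fit.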

Additional observations from a re-analysis of the deposited data

How the results depend on the processing

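Over 245 pairs of a setting and a comparison, 236 called 0 of the 9 enzymes and 9 called 1 or more. No called value reversed its sign under the alternatives run. The enzyme calls were those of Gpx1, Gpx3, Cat and Prdx2 named in the report, and 3 more in the F test: Gpx1 (adjusted p = 0.0493) and Gpx3 (0.00338) with array quality weights, and Gpx3 (0.0408) without perchlorate replicate 16 of day 1. The number of probe sets called moved more, and the cause was not tested. No paired analysis was possible because the groups share no replicate numbers.

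On the values as deposited, diet with perchlorate called 190 probe sets at day 1, 23 against the diet at day 14 and 0 against perchlorate at day 14, the last also 0 with trimmed mean scaling. Calls then split 180 higher and 10 lower at day 1 (83 and 29 after quantile normalization), 7 and 16 against the diet at day 14 (24 and 15), 255 and 10 for the diet over both days (149 and 42), and 9 and 0 for the diet at day 1 (8 and 2). This scaling put the median of all probe sets at 0.20 for diet with perchlorate at day 1. A pseudocount of 64 left 1 call in the interaction. Without the filter, calls were 6 for the diet at day 1, 21 at day 14 and 120 over both days, 19 for diet with perchlorate against the diet at day 14, 1 in the interaction and 63 for the difference between days in the perchlorate effect. With the 60th percentile filter they were 62 for the diet at day 14 and 0 for diet with perchlorate against the diet at day 1.

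With only the groups compared, calls were 1 for perchlorate at day 1 and 1245 at day 14, 2 for the diet at day 1, 518 at day 14 and 543 over both days, 19 for diet with perchlorate at day 1 and 3195 at day 14 (1 enzyme), 0 and 338 against the diet at days 1 and 14, 6 in the interaction and 32 for the difference between days. With array quality weights, whose estimation stopped short of its convergence tolerance, the same order gave 3 and 1762, then 96, 901 and 1340 (1 enzyme over both days), 675 and 4370 (2 enzymes at day 14), 70 and 963 (1 enzyme at day 14), 13 and 497, with 4 for diet with perchlorate against perchlorate, 5 between the controls and 4895 by F (2 enzymes). Without the 2 day 1 arrays that stood apart, calls were 1422 for perchlorate at day 14, 25, 222 and 406 for the diet, 338 and 3297 (1 enzyme) for diet with perchlorate, 62 and 174 against the diet, 67 for the difference between days, 1 between the controls and 2682 by F (1 enzyme).

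Leaving out 1 replicate at a time gave 0 to 55 calls for perchlorate at day 1 and 225 to 552 at day 14, 1 to 6 for the diet at day 1, 6 to 21 at day 14 and 54 to 149 over both days, 60 to 142 for diet with perchlorate at day 1 and 808 to 1358 at day 14 (0 to 1 enzyme), 0 to 3 and 2 to 32 against the diet at days 1 and 14, 0 to 0 against perchlorate, 1 to 3 in the interaction, 30 to 318 for the difference between days, 0 to 1 between the controls and 898 to 2431 by F (0 to 1 enzyme). With 3 arrays a group, the number of arrays limits what could be resolved.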
